A study of Mus musculus with 3 samples.

Results

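The 37 genes described here encode lysosomal hydrolases, the activators that some of them need, and membrane proteins of the lysosome, with cathepsins left out. They were chosen by gene symbol from a list, by a rule that uses no measured value, though the list was drawn up with earlier results of these data known. Each symbol was found in the identifiers of the transcript tables and its gene identifier was then looked up in the gene tables, which matched all 37 of 55536 annotated genes and of 22028 protein-coding genes. The cells were macrophages that had been cultured from bone marrow, and the mice were of the inbred strain C57BL/6J. RNA with a poly(A) tail was sequenced. All 3 samples, called replicates 1, 2 and 3 after the labels, belong to a single group. These cells met lipid A at 100 ng/ml for 12 hours, were washed and left for 12 hours, and met lipid A at the same dose again for 180 minutes. Lipid A, the part of lipopolysaccharide that sits in the outer membrane of bacteria, binds the Toll-like receptor TLR4. Other label fields give the agent as lipoprotein A, a protein, and this conflict is not settled here. Age and sex were not collected, and all samples carry the same donor record, so the spread between replicates may be technical. Cells left unexposed or exposed once are not analysed here, so the values below are levels in re-exposed macrophages and say nothing of a change.

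Lysosomes are acidic compartments in which hydrolases break down proteins, glycans, lipids and nucleic acids taken up or delivered by autophagy, and macrophages are rich in them. Most soluble hydrolases are tagged with mannose 6-phosphate in the Golgi and carried to the lysosome by receptors that bind this tag, while highly glycosylated proteins such as LAMP1 line the membrane. Some of these genes have an E-box, the sequence CACGTG, near their start, which factors of the MiT/TFE family such as TFEB bind. Inherited loss of most of the enzymes causes a lysosomal storage disease.

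The lysosomal genes were present in every replicate and most stood well above the usual protein-coding gene. All 37 reached 1 TPM (a transcript level scaled for length and for library total) in all 3 replicates, which 44.3% of protein-coding genes did. A mean of at least 100 TPM was reached by 15 of 37, against 5.85% of protein-coding genes and 13.2% of the 9749 expressed ones, those at 1 TPM or more in all replicates. Their median level was 6.19 ± 0.16 on the log2(TPM + 1) scale (SD over replicates, n = 3), beside 0.41 ± 0.03 over all protein-coding genes and 4.24 ± 0.02 over expressed ones. Together they held 1.80%, 2.09% and 2.16% of all TPM in replicates 1, 2 and 3. A single gene, Psap, made up 43.3% ± 0.399 (SD, n = 3) of that sum, and the 5 highest genes 77.2% ± 0.142. The highest mean was 1120 times the lowest. In the order of means, 9 of 36 neighbouring pairs had replicate values that did not overlap. The other pairs overlapped when values were compared across replicates, though some, such as Idua and Ids, kept 1 order within every replicate.

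**Figure D1:**
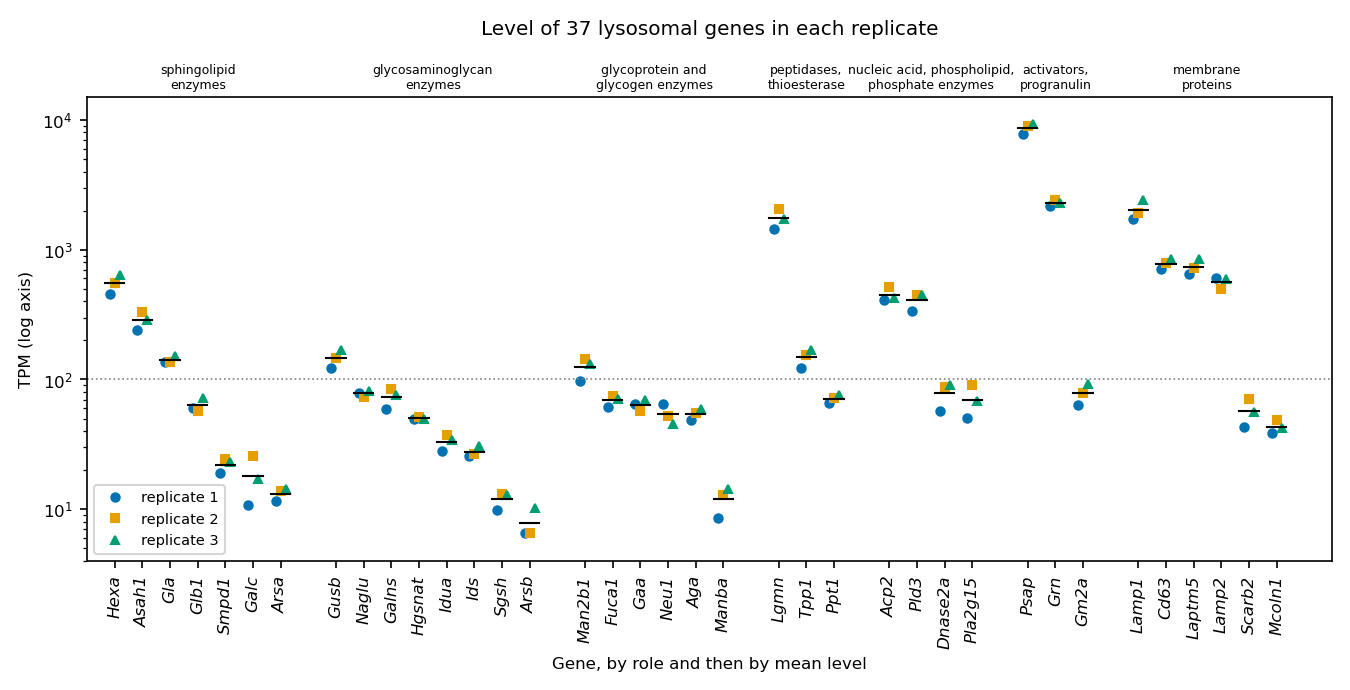
TPM (log axis) of each of the 37 genes in replicates 1, 2 and 3, grouped by role and ordered by mean within a role; black bars are means of 3 replicates and the dotted line marks 100 TPM. Activators and membrane proteins reached the highest levels, from Psap at 8729 TPM, and Arsb stood lowest at 7.79 TPM.

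Libraries held 23418690, 36863611 and 37728915 expected counts, of which the 37 genes took 626640, 1176001 and 1230710. Macrophage markers were high, with 8 of 8 at 1 TPM or more in all replicates and 7 averaging 100 TPM or more. Of the markers of other cells, 0 of 3 B cell, 0 of 3 T and NK cell and 0 of 3 stromal genes reached 1 TPM in all replicates. The osteoclast list had 1 of 4 there, Acp5, and its marker Calcr was listed at 0 in all replicates. The neutrophil list had 2 of 5 there, S100a8 and S100a9, and its summed level was 11.4, 99.2 and 10.6 TPM in replicates 1, 2 and 3, with Ltf at 0.14, 1.73 and 0 TPM and Mpo and Elane at or below 0.18 TPM throughout. In bulk RNA, fewer cells of a type and less RNA per cell cannot be told apart.

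Among activators and secreted factors, Psap stood highest of all 37 genes. Psap, on chromosome 10 (chr10:60277627-60302597, mm10, + strand), encodes the precursor of the saposins, small proteins that present sphingolipids to their hydrolases. Its level was 7847, 8968 and 9371 TPM in replicates 1, 2 and 3, or 8729 ± 789.7 TPM (SD, n = 3), from 297893, 549860 and 583874 expected counts. It ranked 9 among 22028 protein-coding genes, and no replicate of any other of the 37 genes reached its lowest value. Grn encodes progranulin, a secreted and lysosomal glycoprotein, and came next at 2159, 2418 and 2269 TPM, with a mean of 2282 ± 129.8 TPM. Grn was thus high in all 3 replicates, with its lowest value in replicate 1. Gm2a, which encodes the activator that lifts GM2 ganglioside to hexosaminidase, was far lower at 63.3, 79.3 and 92.4 TPM. Its values overlapped those of several hydrolases, and replicate 1 was again the lowest. The Grn to Psap ratio was -1.86, -1.89 and -2.05 on the log2 scale, so that Psap was 3.82-fold higher by the mean log2 ratio.

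The 6 membrane proteins were mostly abundant, with 4 of 6 averaging 100 TPM or more and a median level of 9.33 ± 0.13 on the log2 scale. Lamp1, on chromosome 8 (chr8:13159161-13175338, + strand), encodes the main glycoprotein of the lysosomal membrane and had 1714, 1926 and 2421 TPM, a mean of 2021 ± 363.0 TPM from 53742 to 124144 expected counts. Lamp2 encodes its relative, which also serves in autophagy, and had 601, 496 and 599 TPM. Lamp1 was above Lamp2 in every replicate, by 1.51, 1.96 and 2.02 on the log2 scale, or 3.55-fold by the mean. The 2 genes differed in their order over replicates, Lamp1 being lowest in replicate 1 and Lamp2 in replicate 2. Cd63, a tetraspanin of late endosomes and lysosomes, stood at 780.7 ± 68.4 TPM, and shares 13.4% of its 31-base sequences with a pseudogene, Cd63-ps. Laptm5, a lysosomal membrane protein of blood cells, stood at 739 ± 104.1 TPM. The remaining members of the group were much lower. Scarb2, the receptor that carries glucocerebrosidase to lysosomes, had 43.3, 70.7 and 56.3 TPM, and Mcoln1, the calcium channel TRPML1, had 38.5, 48.5 and 42.3 TPM. Mcoln1 was the lowest of the membrane proteins, and both genes were lowest in replicate 1 and highest in replicate 2.

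Sphingolipid enzymes spanned a wide range, with 3 of 7 averaging 100 TPM or more and a median level of 6.00 ± 0.17 on the log2 scale. Hexa, the alpha subunit of beta-hexosaminidase, was highest at 459, 555 and 637 TPM, and 11.4% of its 31-base sequences occur in Tmem202, which overlaps it on the opposite strand. Hexa was above its partner Gm2a by 2.86, 2.81 and 2.79 on the log2 scale, a 7.05-fold difference by the mean with an SD of 0.04. Asah1, acid ceramidase, followed at 239, 333 and 286 TPM, and Smpd1, acid sphingomyelinase, stood at 19.1, 24.3 and 22.9 TPM. Both had their lowest value in replicate 1 and their highest in replicate 2, and Asah1 was 12.9-fold above Smpd1 by the mean log2 ratio. Gla, alpha-galactosidase A, varied little, at 136, 136 and 152 TPM. Glb1, acid beta-galactosidase, was at 60.15, 57.3 and 71.7 TPM, and shares exon sequence with Tmppe on the same strand. Galc, on chromosome 12 (chr12:98202294-98259459, - strand), encodes the galactosylceramidase that degrades myelin lipids and had 10.8, 25.9 and 17.0 TPM from 606, 2347 and 1561 expected counts. Its highest replicate was 2.40 times its lowest, the widest range of the 37 genes, with replicate 2 high and replicate 1 low. Arsa, arylsulfatase A, which removes sulfate from sulfatide, was the lowest of the group at 11.7, 13.7 and 14.2 TPM. Saposin B, made from Psap, assists this enzyme. The Arsa level stood below that of Psap by a log2 ratio of -9.39, -9.35 and -9.36, or 661.5-fold by the mean. That Arsa level includes a retained-intron transcript, and the protein-coding transcripts of Arsa summed to only 4.39, 3.92 and 4.76 TPM.

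Enzymes of glycosaminoglycan breakdown were the lowest role group in TPM, with 1 of 8 averaging 100 TPM or more and a median level of 5.38 ± 0.12 on the log2 scale. In CPM, counts scaled to the library total and not divided by length, their median was 6.33 and that of the glycoprotein and glycogen enzymes was lower at 6.25. Gusb, beta-glucuronidase, was highest at 122, 146 and 169 TPM. Naglu and Sgsh act on heparan sulfate, as does the membrane acetyltransferase Hgsnat. Naglu had 79.2, 73.8 and 81.5 TPM, while Sgsh had 9.79, 13.1 and 13.0 TPM and shares 19.7% of its 31-base sequences with Card14, a gene on the opposite strand. Naglu was thus above Sgsh in every replicate, by 6.59-fold from the mean log2 ratio. Hgsnat was the steadiest of the 37 genes in the alignment tables, at 49.7, 51.5 and 49.6 TPM, its highest replicate being 1.04 times its lowest. In the FASTQ tables its range was 1.27-fold, and Neu1 was the steadiest there at 1.08-fold. Ids and Idua, the sulfatase and the glycosidase that act in turn on iduronate residues, were close to each other. Ids had 25.6, 26.7 and 30.5 TPM and Idua 27.9, 37.5 and 34.0 TPM, so Idua was higher in all 3 replicates, by 1.19-fold from the mean log2 ratio. The order depends on scaling by length, since Ids was above Idua in CPM by 0.40 ± 0.20 on the log2 scale. Galns, which removes sulfate from keratan sulfate, had 59.3, 84.3 and 75.4 TPM. Arsb, the sulfatase of dermatan sulfate, on chromosome 13 (chr13:93771630-93943016, + strand), was the lowest of all 37 genes at 6.55, 6.59 and 10.2 TPM from 394, 642 and 1015 expected counts. Replicate 3 stood apart from the other two for Arsb, and 31.7% of its 31-base sequences occur in Gm26527, which overlaps it on the opposite strand, as does Gm47210. Galns was 9.48-fold above Arsb by the mean log2 ratio, and replicate 2 gave the widest difference.

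Of the glycoprotein and glycogen enzymes, 1 of 6 averaged 100 TPM or more, and the median level was 5.90 ± 0.10 on the log2 scale. Man2b1, lysosomal alpha-mannosidase, was highest at 97.5, 143 and 133 TPM, and Manba, beta-mannosidase, lowest at 8.55, 12.9 and 14.5 TPM. Man2b1 was 10.5-fold above Manba by the mean log2 ratio, and both were lowest in replicate 1. Neu1, the lysosomal sialidase, had the reverse order of replicates to Aga, at 64.8, 52.3 and 45.6 TPM, with replicate 1 highest and replicate 3 lowest. In the FASTQ tables Neu1 had 41.5, 45.0 and 44.0 TPM, with replicate 1 lowest. Neu1 forms a complex with Glb1, and their ratio had no single direction. The log2 ratio of Glb1 to Neu1 was -0.11, 0.13 and 0.65, with Glb1 lower in replicate 1 and higher in the other two. Its mean was 0.23, and 0.01 without replicate 3. Fuca1, alpha-fucosidase, stood at 68.9 ± 6.58 TPM, Gaa, the acid glucosidase that degrades glycogen, at 63.7 ± 6.10 TPM, and Aga, which splits the bond between glycan and asparagine, at 54.1 ± 5.28 TPM. The replicate values of Fuca1 and Gaa overlapped, as did those of Gaa and Aga. Every value of Fuca1 was above every value of Aga in the alignment tables. Fuca1 and Aga overlapped in the FASTQ tables, with Fuca1 at 54.6 TPM in replicate 1 and Aga at 57.6 TPM in replicate 3. Protein-coding transcripts alone gave the reverse order in the alignment tables. They summed to 38.7, 38.9 and 43.1 TPM for Fuca1 and to 47.6, 54.1 and 57.7 TPM for Aga.

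Lgmn led the peptidases and the thioesterase, of which 2 of 3 averaged 100 TPM or more, with a median level of 7.22 ± 0.25 on the log2 scale. Lgmn encodes legumain, an endopeptidase that cuts after asparagine and also processes cathepsins, and had 1447, 2071 and 1727 TPM, a mean of 1748 ± 312.4 TPM. Tpp1, tripeptidyl peptidase, had 122, 156 and 169.6 TPM, and Ppt1, which removes palmitate from proteins, 65.5, 72.3 and 75.7 TPM. Loss of Tpp1 or Ppt1 function causes a childhood neuronal ceroid lipofuscinosis in humans, and Tpp1 was above Ppt1 in every replicate, by 2.08-fold from the mean log2 ratio. The enzymes of nucleic acids, phospholipids and phosphate esters had a median level of 7.48 ± 0.29 on the log2 scale, with 2 of 4 averaging 100 TPM or more. Acp2, lysosomal acid phosphatase, was highest at 413, 516 and 424 TPM, and shares 10.8% of its 31-base sequences with Ddb2 on the opposite strand. Pld3, an exonuclease of single-stranded DNA and RNA, had 337, 444 and 445 TPM, and Dnase2a, the endonuclease DNase II, 57.5, 87.3 and 90.4 TPM. Pld3 was 5.28-fold above Dnase2a by the mean log2 ratio, and for both genes replicate 1 was low while replicates 2 and 3 lay close together. Dnase2a shares 28.1% of its 31-base sequences with Mast1 on the opposite strand. Pla2g15, a lysosomal phospholipase, was the lowest of these at 50.3, 90.5 and 68.4 TPM, with replicate 2 at 1.80 times replicate 1.

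Of the 12 ratios within samples given above, 11 had the same sign in all 3 replicates and 1, Glb1 to Neu1, did not. In an exact two-sided sign-flip test, 3 values cannot give a p below 0.25, which these 11 ratios reached (Benjamini-Hochberg adjusted p = 0.273 over 12 ratios), so none passes a test. A count ratio not divided by length kept the sign of 11 of 12 mean ratios, all but Ids to Idua. Other genes share reads with several of the 37: at least 10% of the 31-base sequences recur in other genes for 7 of 37, against 23.8% of expressed genes. Exons overlap those of a gene on the opposite strand for 11 of 37, against 31.7%, and on the same strand for 1 of 37, against 9.54%. The sources used here do not say whether counting used strand, and without it reads from a gene and its antisense partner cannot be told apart.

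Most of the 37 genes were lowest in the same replicate. Replicate 1 gave the lowest level for 31 of 37 genes, against 39.4% of expressed protein-coding genes. Replicate 3 gave the highest level for 20 of 37 genes, against 30.3% of expressed genes. In the alignment tables, only Neu1 and Lamp2 had their highest level in replicate 1, and for Lamp2 replicates 1 and 3 were almost equal. The median departure of the 37 genes from their own means was -0.19, 0.06 and 0.11 on the log2(TPM + 1) scale in replicates 1, 2 and 3, beside -0.02, 0.03 and -0.002 for expressed genes. All 7 role groups had a negative median departure in replicate 1, from -0.34 for the enzymes of nucleic acids, phospholipids and phosphate esters to -0.15 for activators and progranulin.

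**Figure D2:**
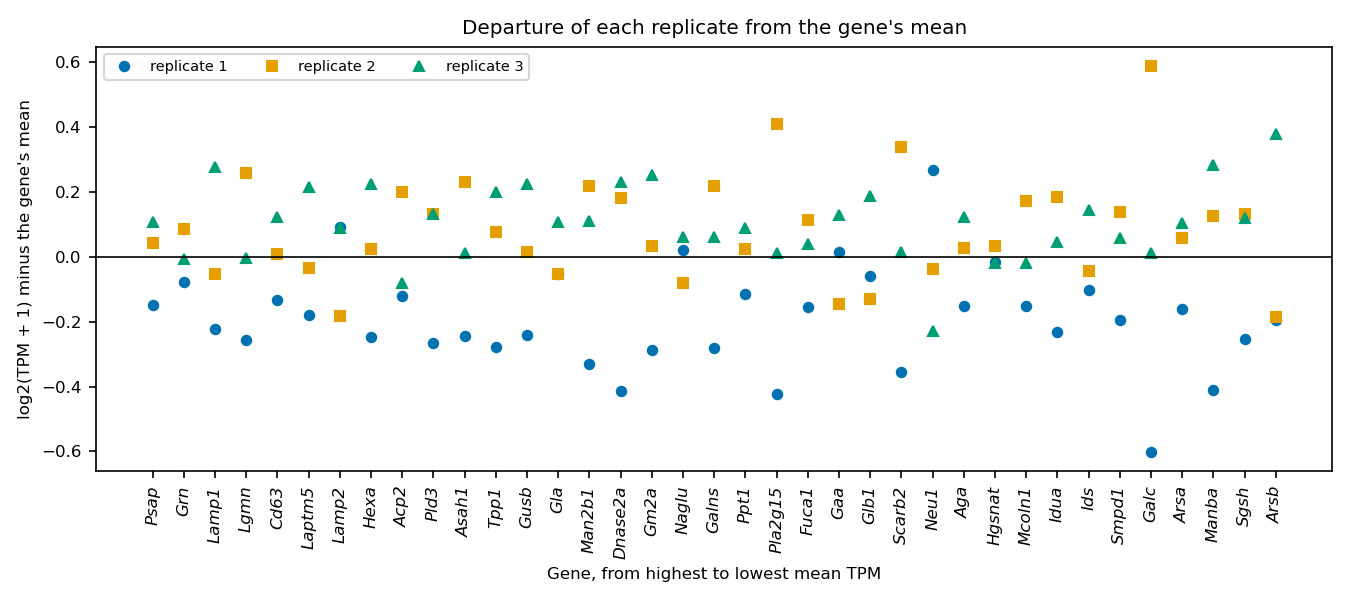
Departure of each replicate from the gene's mean on the log2(TPM + 1) scale, for the 37 genes ordered from the highest to the lowest mean TPM. Replicate 1 lies lowest for 31 genes, Galc spreads most, and Neu1 is highest in replicate 1.

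Replicate 1 was also the shallowest library, and the highest protein-coding gene, the ferritin heavy chain gene Fth1, took a larger part of it, with 70950.5, 49418 and 49158.5 TPM in replicates 1, 2 and 3. The count of genes lowest in replicate 1 was 28 with TPM rescaled by edgeR's TMM factors (34.2% of expressed genes), 28 with DESeq2's size factors (34.0%), and 30 in CPM (43.8%). In the tables made from FASTQ files all 37 were lowest in replicate 1, where 74.4% of expressed genes were too. There the median departure in replicate 1 was -0.45 for the 37 genes and -0.22 for expressed genes, so the distance between both was -0.23, beside -0.18 in the alignment tables. Fth1 was at 46145, 38775 and 43465 TPM in these tables. Macrophage markers had a median departure of -0.13 in replicate 1, with 5 of 8 lowest there. The part of depth, of the Fth1 level and of the macrophage markers in this pattern was not tested.

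The spread between replicates was modest for most genes. The median SD over replicates was 0.21 on the log2(TPM + 1) scale for the 37 genes and 0.17 for expressed genes, and counting error alone would give a median SD of 0.02. The median SD of the 37 genes was 0.11 without replicate 1, and 0.20 without replicate 2 or without replicate 3. The same was not computed for expressed genes. The observed SD was at least 2 times the counting SD for 36 of 37 genes, all but Hgsnat, against 70.2% of expressed genes. The counting SD is smaller at higher counts, and the 37 genes had the higher median level, 6.19 against 4.24 for expressed genes. Expressed genes of like level were not compared. A highest replicate of at least 2 times the lowest was seen for 1 of 37 genes, Galc, against 6.49% of expressed genes, and this call was lost when replicate 1 or replicate 2 was left out. With the FASTQ tables, 7 of 37 genes had such a range, against 9.64% of expressed genes. These were Galc at 2.96-fold, Arsb at 2.42-fold, Pla2g15 at 2.36-fold, Scarb2 at 2.14-fold, Gm2a at 2.11-fold, Lamp1 at 2.04-fold and Dnase2a at 2.03-fold, each lowest in replicate 1. Mean levels were lower in the FASTQ tables for most genes. The FASTQ level was 0.838 times the alignment level at the median of the 37 genes, from 0.777 for Hgsnat to 1.05 for Arsb, and 0.860 at the median of expressed genes. A difference of over 1.5-fold between the tables was found for 0 of 37 genes, against 2.74% of expressed genes.

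The 37 genes have 189 annotated transcripts, and for most genes a single one carried nearly all of the level. The leading transcript held at least 90% of the gene's TPM for 24 of 37 genes in the alignment tables, against 36.9% of expressed genes, and for 23 in the FASTQ tables, against 30.1%. By the mean share it was the same transcript in both for 36 of 37 genes, a count not made for expressed genes. Gaa was the exception, with Gaa-201 leading at 50.9% ± 3.45 (SD, n = 3) in the alignment tables. Gaa-203 led at 56.9% ± 5.22 in the FASTQ tables, and both are protein coding. Gaa-203 also led in replicate 1 of the alignment tables, at 49.1% against 47.7% for Gaa-201. Lamp2 was split between forms that differ in the tail exposed to the cytosol. Lamp2-201, whose coded end is that of form A, held 55.6%, 51.8% and 55.2% of Lamp2 TPM, and Lamp2-202, which ends as form B, held 43.7%, 47.7% and 44.2%. Form A, the receptor of chaperone-mediated autophagy, was therefore the larger in TPM in every replicate. Lamp2-203, which ends as form C, was at or below 0.475% there. In the FASTQ tables the same order held, with 56.8% ± 2.50 for Lamp2-201 and 42.5% ± 2.58 for Lamp2-202. The order depends on scaling by length, since Lamp2-202 took more expected counts in every replicate. These were 13982, 20397 and 23240 for Lamp2-202 and 8035, 9918 and 12946 for Lamp2-201.

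**Figure D3:**
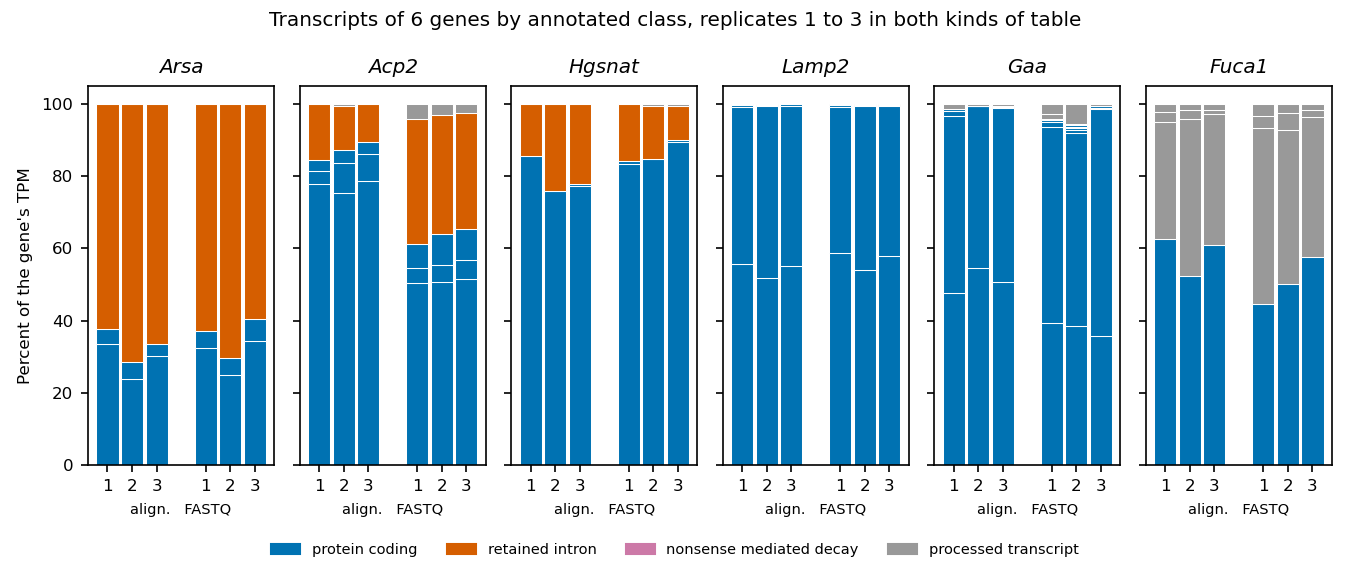
Share of the TPM of a gene, in percent, that each annotated transcript holds, coloured by annotated class, for 6 genes in replicates 1 to 3 of the alignment tables (left bars) and the FASTQ tables (right bars); white lines separate transcripts. A retained-intron transcript takes 66.8% of Arsa in the alignment tables, and Lamp2 is split between its forms.

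Arsa was, by the mean share over replicates, the only one of the 37 genes whose leading transcript was not annotated as protein coding. Of expressed genes, 5.64% had such a leading transcript in the alignment tables and 6.28% in the FASTQ tables. Fuca1 was led by Fuca1-205, a processed transcript, in replicate 1 of the FASTQ tables, at 48.7% against 44.6% for Fuca1-201. Arsa-201, annotated as a retained intron, held 62.4%, 71.5% and 66.5% of Arsa TPM in replicates 1, 2 and 3 of the alignment tables, and 64.2% ± 5.52 in the FASTQ tables. The protein-coding transcript Arsa-202 held 29.1% ± 5.002, or 3.92, 3.26 and 4.28 TPM, less than the retained-intron transcript in every replicate. Arsa, on chromosome 15 (chr15:89472476-89477425, - strand), also shares 16.9% of its 31-base sequences with C230037L18Rik on the opposite strand. Retained-intron transcripts summed to 10% or more of the gene's TPM for 4 of 37 genes in the alignment tables, against 16.0% of expressed genes, and for 6 of 37 in the FASTQ tables, against 21.3%. Those of the alignment tables were Arsa, Hgsnat at 20.2% ± 5.15, Acp2 at 12.8% ± 2.57 and Mcoln1 at 11.4% ± 2.74. The FASTQ tables added Tpp1 at 20.5% ± 8.24 and Asah1 at 16.3% ± 7.19, and put Acp2 at 33.2% ± 1.34. Such shares rest on how reads common to several transcripts were divided, and for Acp2, Tpp1 and Asah1 the replicate values of both kinds of table did not overlap.

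Other genes differed between replicates in their transcripts. Lgmn-202, a shorter protein-coding transcript, held 29.4%, 16.7% and 14.1% of Lgmn TPM, so replicate 1 was high for it while the gene as a whole was low there. Fuca1-205, a short transcript annotated as a processed transcript, held 32.3%, 43.7% and 36.2% of Fuca1 TPM from only 48, 116 and 87 counts, and its part in the gene level is uncertain. Manba-205, another short processed transcript, was at 26.1% in replicate 3 from 4 counts and listed at 0 in replicates 1 and 2, and it adds to the replicate 3 level of Manba.

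E-boxes were found near the start of several of these genes. The 3 windows with more than 1 copy are shown because their copies are clustered, and that of Naglu as a window with a single copy. RefSeq windows on build GRCm38.p6 ran from 250 bases before to 50 after the RefSeq start. They were read for 33 of the 37 genes (all but Aga, Asah1, Galns and Hgsnat) and for 27025 genes in all. For some genes the RefSeq start differs from that of the gene annotation behind the levels. The Lgmn window (chr12:102439043-102439342, - strand) lies wholly inside the gene of that annotation (chr12:102394084-102439813). Capitals mark CACGTG, which reads the same on both strands. Lamp1 (chr8:13158911-13159210, + strand) holds 4 copies, Gla (chrX:134600956-134601255, - strand) 2 copies, Mcoln1 (chr8:3500269-3500568, + strand) 2 copies and Naglu (chr11:101069844-101070143, + strand) 1 copy, each shown 5′ to 3′ on the strand of its gene.
Lamp1: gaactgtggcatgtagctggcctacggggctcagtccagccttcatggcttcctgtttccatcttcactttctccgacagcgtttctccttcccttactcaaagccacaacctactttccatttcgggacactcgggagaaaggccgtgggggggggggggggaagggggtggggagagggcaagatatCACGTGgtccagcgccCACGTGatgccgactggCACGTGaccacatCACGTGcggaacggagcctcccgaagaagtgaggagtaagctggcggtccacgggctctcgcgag
Gla: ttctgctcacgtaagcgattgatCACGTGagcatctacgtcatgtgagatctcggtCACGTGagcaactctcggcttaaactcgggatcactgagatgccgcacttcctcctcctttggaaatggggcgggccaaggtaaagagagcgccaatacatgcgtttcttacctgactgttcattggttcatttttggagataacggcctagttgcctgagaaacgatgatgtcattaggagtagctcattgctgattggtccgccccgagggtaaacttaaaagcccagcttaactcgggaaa
Mcoln1: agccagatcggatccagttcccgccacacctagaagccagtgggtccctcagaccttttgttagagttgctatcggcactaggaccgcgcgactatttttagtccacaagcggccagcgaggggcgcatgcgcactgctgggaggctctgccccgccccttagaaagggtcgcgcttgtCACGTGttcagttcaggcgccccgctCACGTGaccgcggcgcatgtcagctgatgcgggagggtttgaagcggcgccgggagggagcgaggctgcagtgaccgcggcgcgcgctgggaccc
Naglu: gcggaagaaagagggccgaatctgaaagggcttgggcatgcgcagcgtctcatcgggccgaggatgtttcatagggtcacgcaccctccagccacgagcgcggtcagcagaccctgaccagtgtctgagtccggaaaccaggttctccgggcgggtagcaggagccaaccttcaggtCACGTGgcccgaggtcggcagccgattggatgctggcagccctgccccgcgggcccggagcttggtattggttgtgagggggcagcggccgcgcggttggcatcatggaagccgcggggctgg
In Lamp1 the copies lie within 61 bases before the RefSeq start, the nearest beginning 15 bases before it. Those of Gla lie further off, beginning 227 and 194 bases before the RefSeq start. The Gla start of the annotation behind the levels, chrX:134601125, lies nearer to these copies.

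CACGTG was present in the windows of 9 of 33 lysosomal genes, which are Arsa, Gaa, Gla, Glb1, Lamp1, Lgmn, Mcoln1, Naglu and Sgsh, and in 8.09% of all genes with a window. The longer match TCACGTGA, which holds CACGTG within it, was present in 2 of 33, Gla and Mcoln1, against 1.12% of all genes. GTCACGTG, searched on both strands and chosen after the windows had been seen, was present in 8 of 33, all of the 9 but Gaa, against 2.55% of all genes; it overlaps both other motifs. At least 2 copies of CACGTG were present in 3 of 33 lysosomal genes and in 0.681% of all genes. Lamp1 was among 6 genes, 0.0222% of all, with 4 copies or more. The 9 genes with CACGTG had a median of mean levels of 63.7 TPM, from 12.0 TPM for Sgsh to 2021 TPM for Lamp1, and the 24 genes without it 78.4 TPM. A match is a description of these letters in the window and does not show binding.

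**Figure D4:**
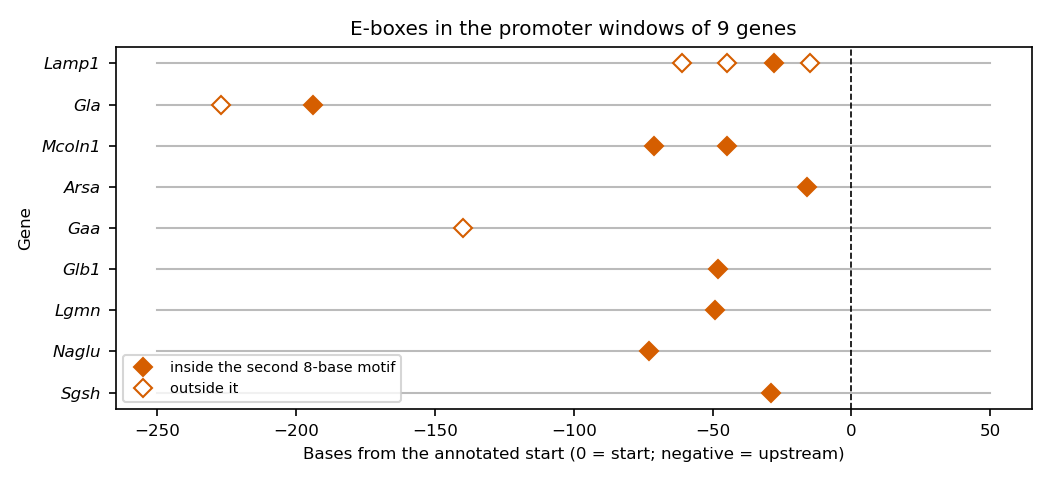
Position of each E-box in the promoter windows of 9 genes, in bases from the annotated RefSeq start (0, dashed line), with grey lines for the windows. Filled symbols lie inside the longer match GTCACGTG and open symbols outside it. Of 14 copies, 11 begin within 75 bases before the RefSeq start, which for some genes differs from that of the annotation behind the levels.

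Other genes of the pathway give the setting of these levels. The 16 subunits and accessory proteins of the V-ATPase, the pump that acidifies the lysosome, had a median level of 7.85 on the log2(TPM + 1) scale, and 14 of 16 averaged 100 TPM or more. Atp6v0c, which forms the membrane ring, was highest at 1439, 1251 and 1506 TPM, and Atp6v0d2, an isoform known from osteoclasts and macrophages, lowest at 6.96, 17.5 and 10.7 TPM. Atp6v0d2 had the same order over replicates as Galc, lowest in replicate 1 and highest in replicate 2. That order was found for 14 of the 37 genes and for 21.2% of expressed genes. The summed level of the neutrophil markers, 11.4, 99.2 and 10.6 TPM, was also highest in replicate 2 but lowest in replicate 3. The part of these markers was not tested. The 11 cathepsins, the main lysosomal proteases, had a median of 9.84, above that of the 37 genes, with Ctsb highest at 7101, 7874 and 8602 TPM and Ctsk lowest at 3.61, 0.81 and 1.55 TPM. Among 9 further lysosomal proteins, with a median of 7.19 and 7 averaging 100 TPM or more, the cholesterol carrier Npc2 was highest at 891, 818 and 905 TPM and the hyaluronidase Hyal1 lowest at 9.07, 7.48 and 6.26 TPM.

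The lists of genes that sort lysosomal proteins, carry solutes or regulate transcription had lower medians than the 37 genes. The 7 genes of mannose 6-phosphate tagging, sorting and sulfatase activation had a median of 4.76, with 1 averaging 100 TPM or more. That was M6pr, the cation-dependent receptor, at 358, 369 and 373 TPM, and the sorting receptor Sort1 was lowest at 1.02, 2.01 and 1.61 TPM. The 8 transporters and channels of the lysosomal membrane had a median of 4.09, from the chloride-proton exchanger Clcn7 at 284, 233 and 302 TPM to the arginine sensor Slc38a9 at 7.70, 10.3 and 7.82 TPM. Of the 4 MiT/TFE factors, with a median of 5.36, 0 averaged 100 TPM or more. Tfe3 was highest at 67.5, 94.9 and 73.8 TPM and Tfeb lowest at 9.11, 11.3 and 7.81 TPM, so Tfe3 was above Tfeb in every replicate. The median departure in replicate 1 was -0.08 for the V-ATPase with 8 of 16 genes lowest there, and -0.04 for cathepsins with 5 of 11. It was -0.16 for the sorting genes with 6 of 7, and -0.11 for the further lysosomal proteins with 5 of 9. For transporters and channels it was -0.08 with 6 of 8, and for MiT/TFE factors -0.04 with 1 of 4. Of expressed genes, 39.4% were lowest in replicate 1. The difference between these lists and the 37 genes in that respect was not tested.

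**Figure D5:**
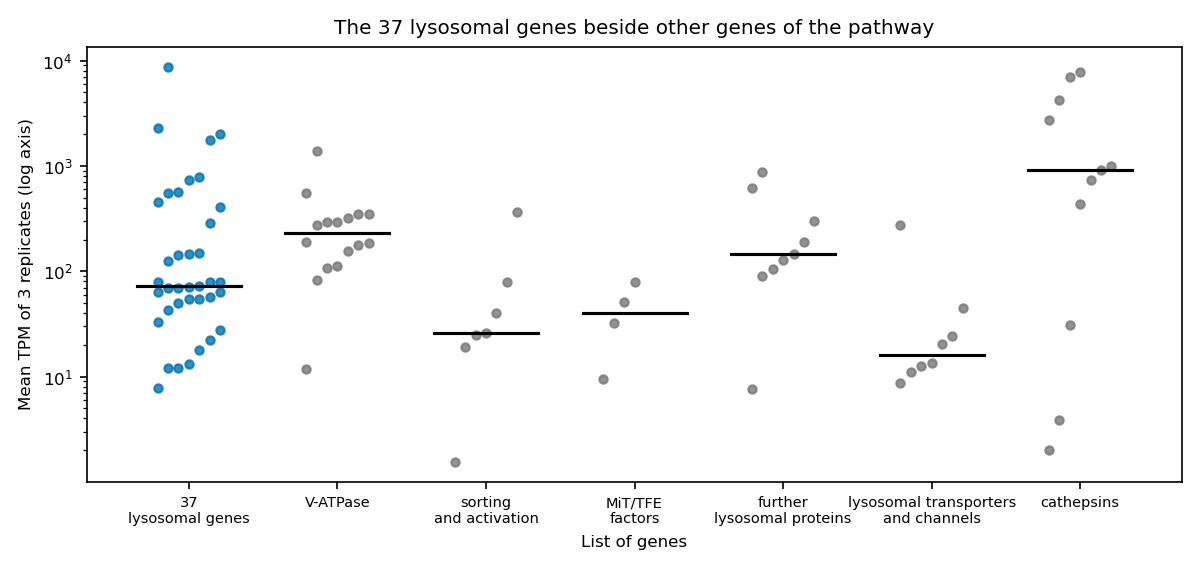
Mean TPM over 3 replicates (log axis) of the 37 lysosomal genes (blue) and of 6 other lists of the pathway (grey), 1 point per gene; black bars are medians over genes. Cathepsins and V-ATPase genes have higher medians than the 37 genes, and sorting genes, MiT/TFE factors and transporters lower ones.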

How the data were processed

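Per the file headers, the deposited gene table and transcript table of a sample, made by the authors from an alignment to the transcriptome, hold expected counts and TPM. Another deposited transcript table, made from FASTQ files, holds estimated counts and TPM. The assembly is mm10 and the annotation M21, per the deposited file lists. For the programs, their versions and the use of strand, the sources used here give nothing. The deposited TPM set the levels, since they scale for length and library total, so a gene that takes more of a library lowers all others in it. Levels in the FASTQ tables are sums over the transcripts of a gene.

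Total expected counts were 23418690, 36863611 and 37728915. They set the counting error, which covers counting only, since no molecular identifiers are described. For rescaling, expected counts were rounded and factors taken with edgeR 4.0.16 (TMM factors of 0.982, 1.03 and 0.992) and DESeq2 1.42.0 in R 4.3.3. Everything else used Python 3.11.15 (scipy 1.17.1, pandas 2.3.3, numpy 2.4.6, matplotlib 3.10.9). With 1 group there is no test between groups, and log2 levels carry a pseudocount of 1, while ratios carry none. Read sharing is given as the percent of all 31-base sequences in a gene's transcripts that other annotated genes also hold, or, where a gene is named as the partner, that this gene holds. Lamp2 forms were told apart by the last coded residues of each transcript.

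The 37 genes, the related lists, the markers and the ratios were chosen with earlier results of these data known. All 37 were to be named, and in full the highest and lowest of each role group, the genes of the ratios, those with the widest and narrowest range over replicates, and the highest and lowest of each related list. Alternatives were leaving out each replicate, the FASTQ tables, other scalings, CPM, another pseudocount, filters on low values, other backgrounds and longer motifs. The counts lowest in replicate 1 under other scalings and the motif GTCACGTG were added after the data were seen. The number of sample columns left unused for want of a label was 0.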

Additional observations from a re-analysis of the deposited data

How the results depend on the processing

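Of 156 values under alternative settings, 121 stayed within a spread or within 1.5 times the main count, 34 moved and 1 reversed. The spread was the SD over replicates, or, for the median SD and the median departures, the SD over the 37 genes. For ratios, leaving out a replicate cannot shift the mean past that SD, so those values could not move. The filter at a mean of 1 TPM removed none of the 37 genes. Other backgrounds were listed as moved without a criterion. The tally is therefore no measure of robustness. The reversed value was the Ids to Idua ratio, -0.26 in TPM and 0.40 in CPM, which is not divided by length. With the FASTQ tables the median level of the 37 genes was 5.90 (6.19 in the alignment tables), and it was 6.97 in CPM; these scales are not levels of the same kind. In the same order, role medians were 5.69 and 6.55 for sphingolipid enzymes, 5.06 and 6.33 for glycosaminoglycan enzymes, 5.64 and 6.25 for glycoprotein and glycogen enzymes, 7.13 and 7.97 for nucleic acid, phospholipid and phosphate enzymes, and 10.8 and 11.6 for activators and progranulin. Peptidases moved in CPM to 8.11 and membrane proteins in the FASTQ tables to 9.07. Mean log2 ratios, again FASTQ tables first, were 2.76 and 1.65 for Hexa to Gm2a, 4.02 and 3.86 for Asah1 to Smpd1, and 1.24 and 1.42 for Tpp1 to Ppt1. In CPM they were -9.25 for Arsa to Psap, -1.89 for Sgsh to Naglu, -2.49 for Arsb to Galns, -2.99 for Dnase2a to Pld3 and -2.22 for Grn to Psap. In the FASTQ tables the median SD was 0.39, the departure of replicate 1 was -0.45 and that of replicate 3 was 0.30, and 7 genes had a 2-fold range. Leaving out each replicate gave 0 to 1 genes with a 2-fold range. The E-box count was 2 with TCACGTGA. The cause of these differences was not tested, other than that CPM leaves out length. The library of replicate 1, the shallowest, limits the lowest gene, Arsb, to 394 counts.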
